A study of Sus scrofa with 2 samples.

Results

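LDHA, PGK1, ENO1, ENO2, PFKP, HK2 and BNIP3 code for 6 enzymes of glycolysis and 1 mitochondrial protein that answer to low oxygen. They were followed as raw UMIs across the cell classes of the longissimus dorsi, the loin muscle of the pig. The genes were taken by symbol, and all 7 were among the 21301 features listed. One library was GDSS, which stands for the Guangdong small-eared spotted pig, and the other was Yorkshire, breeds that the study sets against each other for their intramuscular fat. Per the labels both held intramuscular vascular stem cells of the muscle, 1 g of which was taken per piglet, after red cell lysis and bead removal of dead cells. There was 1 library per breed. The titles carry "P0", which the labels do not define, and the number, sex and age of the piglets are not stated.

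Glycolysis splits glucose into pyruvate. Hexokinases trap glucose in the cell, phosphofructokinases make the committed step, phosphoglycerate kinase makes ATP, enolases act next to last, and lactate dehydrogenase A turns pyruvate into lactate. When oxygen falls, the HIF alpha proteins are no longer hydroxylated by the EGLN enzymes, pair with ARNT, and switch on many genes of this pathway. BNIP3 and its relative BNIP3L sit on the outer mitochondrial membrane and mark mitochondria for removal. Most steps have several isoenzymes, and tissues differ in the one they use: ENO3, PFKM and HK2 are the classical muscle forms.

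The GDSS library held 12286 barcodes and 42093851 UMIs, and the Yorkshire library 14695 barcodes and 54300953 UMIs. After filtering, 10649 and 12762 cells remained, with a median of 2882 UMIs per GDSS cell and 3005 per Yorkshire cell, and 47 barcodes occurred in both libraries. Cells were gated by marker genes, without clustering, into 8 classes: stromal-like, tenocyte-like, satellite-like, myofibre-like, endothelial-like, mural-like, Schwann-like and macrophage-like, written below without the suffix. The gates took in 82.6% of GDSS and 69.2% of Yorkshire cells, and 1359 GDSS and 3261 Yorkshire cells passed none. The label names vascular stem cells, but the largest class in GDSS was stromal, with 6946 cells against 1742 in Yorkshire. The largest in Yorkshire was satellite, with 404 cells in GDSS and 3906 in Yorkshire. The thinnest sum was the GDSS myofibre class, with 66 cells and 113560 UMIs. The 9 myofibre markers, which the gate itself used, summed there to 41520 UMIs per 1000000 UMIs (CPM), against 32675 CPM in Yorkshire.

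Levels below are in CPM of the class. They come from one end of the transcript and are compared between classes for 1 gene, or as shares within an isoenzyme family. To compare classes, UMIs were summed per class and library, and each class was set against the mean of the other 7 with edgeR's quasi-likelihood test and library as a term. Its p-values were adjusted by Benjamini-Hochberg over the 10912 genes tested, and "called" means an adjusted p under 0.05. The SE beside a log2 change was calculated back from the test, as the absolute log2 change over the square root of the F statistic. The replicates of a class are the 2 libraries. A difference between them common to all classes is taken up by the library term. The spread is what differed between the libraries in a way not shared by all classes, and breed and preparation are not separated in it. Folds come from the mean of log values over classes, so a single high class, or a class at 0 UMIs, shifts them for the other classes. They also use TMM scaling, which the printed CPM do not: on CPM the median of all genes was -0.54 (log2) in macrophages and -0.39 in tenocytes, against -0.15 and 0.04 under TMM.

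Of the 56 class contrasts of the 7 genes, 24 were called, 13 higher and 11 lower, and 28% of the contrasts of all genes were. In macrophages 3 of the 7 genes were called higher, where 22.4% of all genes were, namely LDHA, ENO1 and PGK1. In stromal cells 4 were called higher (BNIP3, HK2, ENO2 and PFKP; 20% of all genes) and 1 lower (LDHA; 7.39%). Tenocytes had 2 higher (BNIP3 and ENO2; 21.1%) and 1 lower (LDHA; 10.8%), and satellite cells 2 higher (ENO1 and HK2; 14.7%) and 1 lower (LDHA; 9.06%). Myofibres had 1 higher (BNIP3; 9.7%) and 1 lower (ENO1; 7.07%). Mural cells had 1 higher (PFKP; 16.5%) and 1 lower (ENO1; 8.83%). Endothelial cells had 3 lower (BNIP3, ENO2 and HK2; 12.6%), as had Schwann cells (ENO1, BNIP3 and PFKP; 11%). The 7 genes did not move as a block: the classes with the most LDHA and ENO1 were not those with the most PFKP, HK2, ENO2 or BNIP3.

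**Figure D1:**
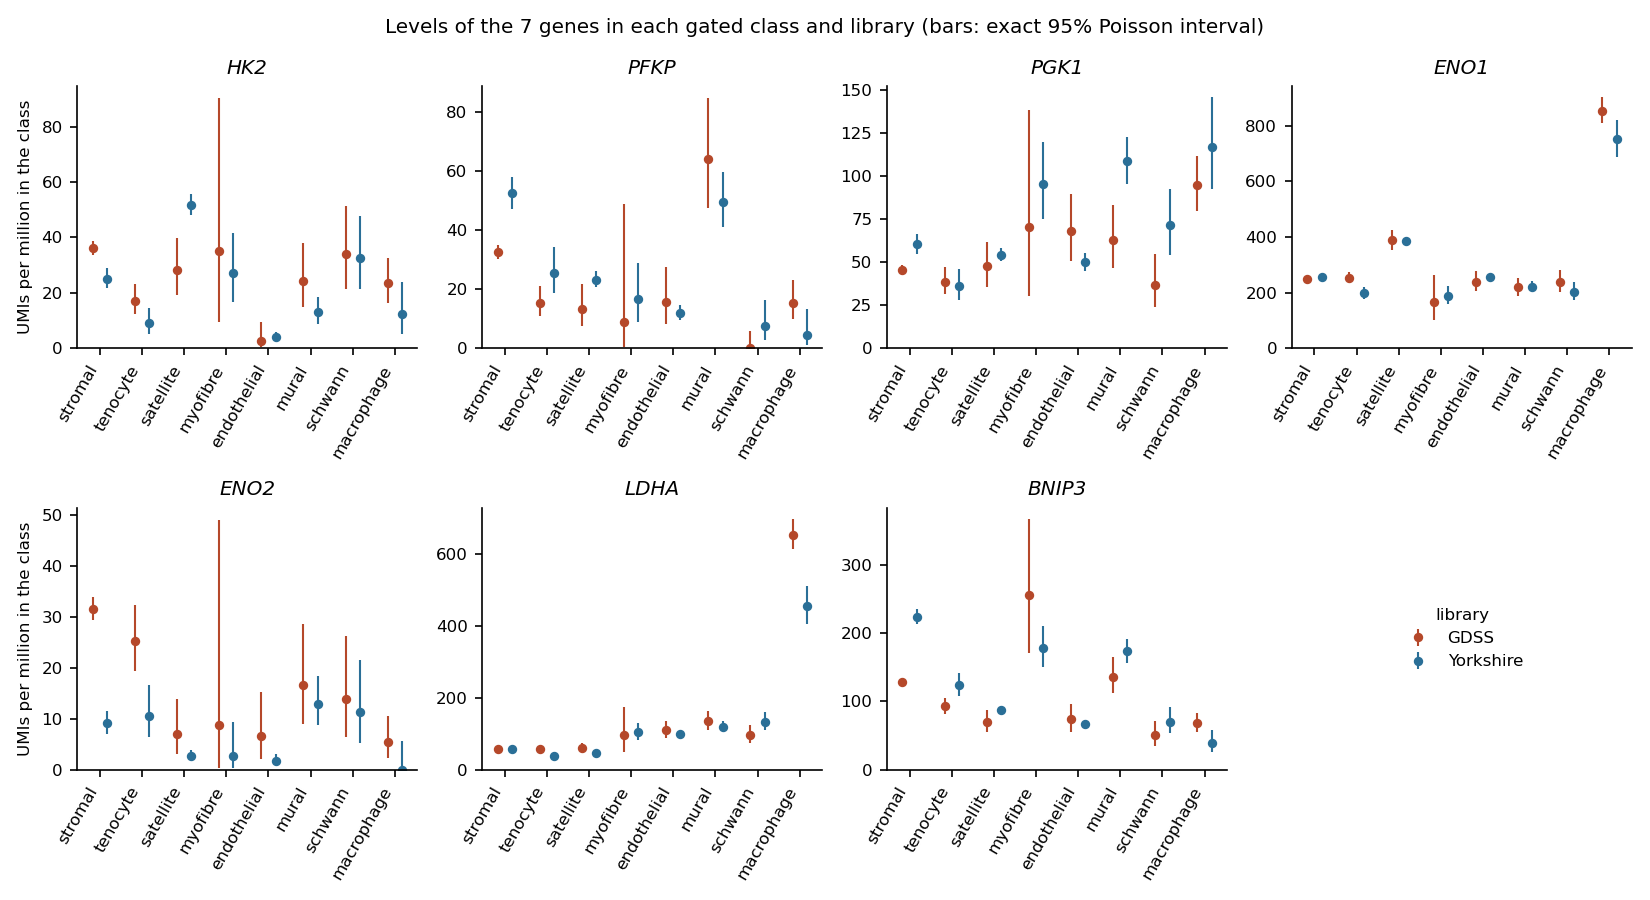
Level of each of the 7 genes (CPM, linear axes from 0) in the 8 gated classes, GDSS in red on the left and Yorkshire in blue on the right of each pair, with exact 95% Poisson intervals of the counting error. LDHA and ENO1 stand highest in macrophages, at 653 and 455 CPM for LDHA, and HK2 lies lowest in endothelial cells, at 2.63 and 4.10 CPM.

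HK2, the inducible hexokinase bound to mitochondria, was lowest in endothelial cells. Its level in endothelial cells was 2.63 CPM in GDSS (2 UMIs) and 4.10 CPM in Yorkshire, and the other 7 classes averaged 28.3 CPM in GDSS and 24.4 CPM in Yorkshire. Both libraries put endothelial cells last, next to tenocytes (17.1 CPM in GDSS and 8.92 CPM in Yorkshire), whose counting interval they overlapped in Yorkshire only. The difference was 5.88-fold lower (log2 change -2.56 ± 0.40 SE; edgeR adjusted p = 3.73e-05). HK1, the housekeeping form, went the other way, with 117 CPM in GDSS and 154 CPM in Yorkshire endothelial cells, the highest of the 8 classes in both libraries (log2 change 1.26 ± 0.19 SE; edgeR adjusted p = 2.70e-05).

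As a share of hexokinase UMIs, HK2 made up 1.92% in GDSS and 2.37% in Yorkshire endothelial cells. In satellite cells its share was 31.1% in GDSS and 32.6% in Yorkshire. HK2 was called higher in satellite cells, with 28.2 CPM in GDSS and 51.9 CPM in Yorkshire (2.62-fold over the other classes; edgeR adjusted p = 3.36e-04). The log2 difference was 0.46 in GDSS alone and 1.81 in Yorkshire alone, so most of the fold came from Yorkshire. Satellite cells were highest for HK2 in Yorkshire only. In GDSS, stromal cells, myofibres (35.2 CPM) and Schwann cells (33.9 CPM) stood above them, each interval overlapping the next. The satellite share was not particular to that class either: in GDSS Schwann cells HK2 exceeded HK1 (24.6 CPM). In stromal cells HK2 had 36.1 CPM in GDSS and 25.1 CPM in Yorkshire (1.65-fold; edgeR adjusted p = 0.0315), a call lost with DESeq2 and without the library term. HK3, the hexokinase of myeloid cells, was called higher in macrophages, with 27.4 CPM in GDSS and 22.8 CPM in Yorkshire (2.21-fold; edgeR adjusted p = 0.005). It was not set apart there by level, since GDSS myofibres had 44.0 CPM (5 UMIs) and Yorkshire Schwann cells 22.6 CPM.

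PFKP, the platelet form of phosphofructokinase, was a gene of mural and stromal cells. In mural cells, the smooth muscle and pericytes of vessels, it had 64.2 CPM in GDSS and 49.6 CPM in Yorkshire (3.19-fold over the other classes; edgeR adjusted p = 3.48e-04). In stromal cells it had 32.5 CPM in GDSS and 52.5 CPM in Yorkshire (2.75-fold; edgeR adjusted p = 2.70e-04). Beside mural cells the other classes averaged 14.45 CPM in GDSS and 20.3 CPM in Yorkshire. Beside stromal cells they averaged 19.0 and 19.9 CPM. Schwann cells gave 0 PFKP UMIs of 649661 in GDSS, which allows up to 4.62 CPM, and 6 UMIs (7.54 CPM) in Yorkshire. That was called lower (edgeR adjusted p = 0.00232), with no fold given, since 1 library is at 0. The same 0 enters the mural and stromal folds.

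The phosphofructokinase in use differed by class. Mural cells carried mostly PFKP, 62.5% of family UMIs in GDSS and 62.2% in Yorkshire, and PFKL, the liver form, was called lower there (log2 change -1.38 ± 0.28 SE; edgeR adjusted p = 0.00106). In tenocytes PFKL led, with 77.4% in GDSS and 54.1% in Yorkshire, and was called 2.61-fold higher than in the other classes (edgeR adjusted p = 3.68e-05). Its level in tenocytes was 86.75 CPM in GDSS and 40.7 CPM in Yorkshire, where myofibres had more (54.3 CPM). On CPM the log2 difference was 1.33 in GDSS alone and 0.44 in Yorkshire alone. In stromal cells the leader was not the same in the 2 libraries: PFKP held 39.4% (95% Clopper-Pearson interval 37.3 to 41.6%) in GDSS and 55.5% (51.7 to 59.3%) in Yorkshire. In satellite cells PFKP likewise held 27.8% in GDSS and 53.3% in Yorkshire. PFKM, the muscle form, was called higher in myofibres on 27 Yorkshire UMIs (34.9 CPM), while the GDSS myofibre sum held 0, which at its depth allows up to 26.4 CPM. It was not particular to myofibres: PFKM was also called higher in mural cells (20.6 CPM in GDSS and 13.8 CPM in Yorkshire; 2.82-fold; edgeR adjusted p = 0.015) and in tenocytes (9.77 CPM in GDSS and 8.92 CPM in Yorkshire; 2.52-fold; edgeR adjusted p = 0.0254). Beside mural cells the other classes averaged 2.73 CPM in GDSS and 9.67 CPM in Yorkshire. Beside tenocytes they averaged 4.27 and 10.4 CPM, so Yorkshire tenocytes were below that mean.

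**Figure D2:**
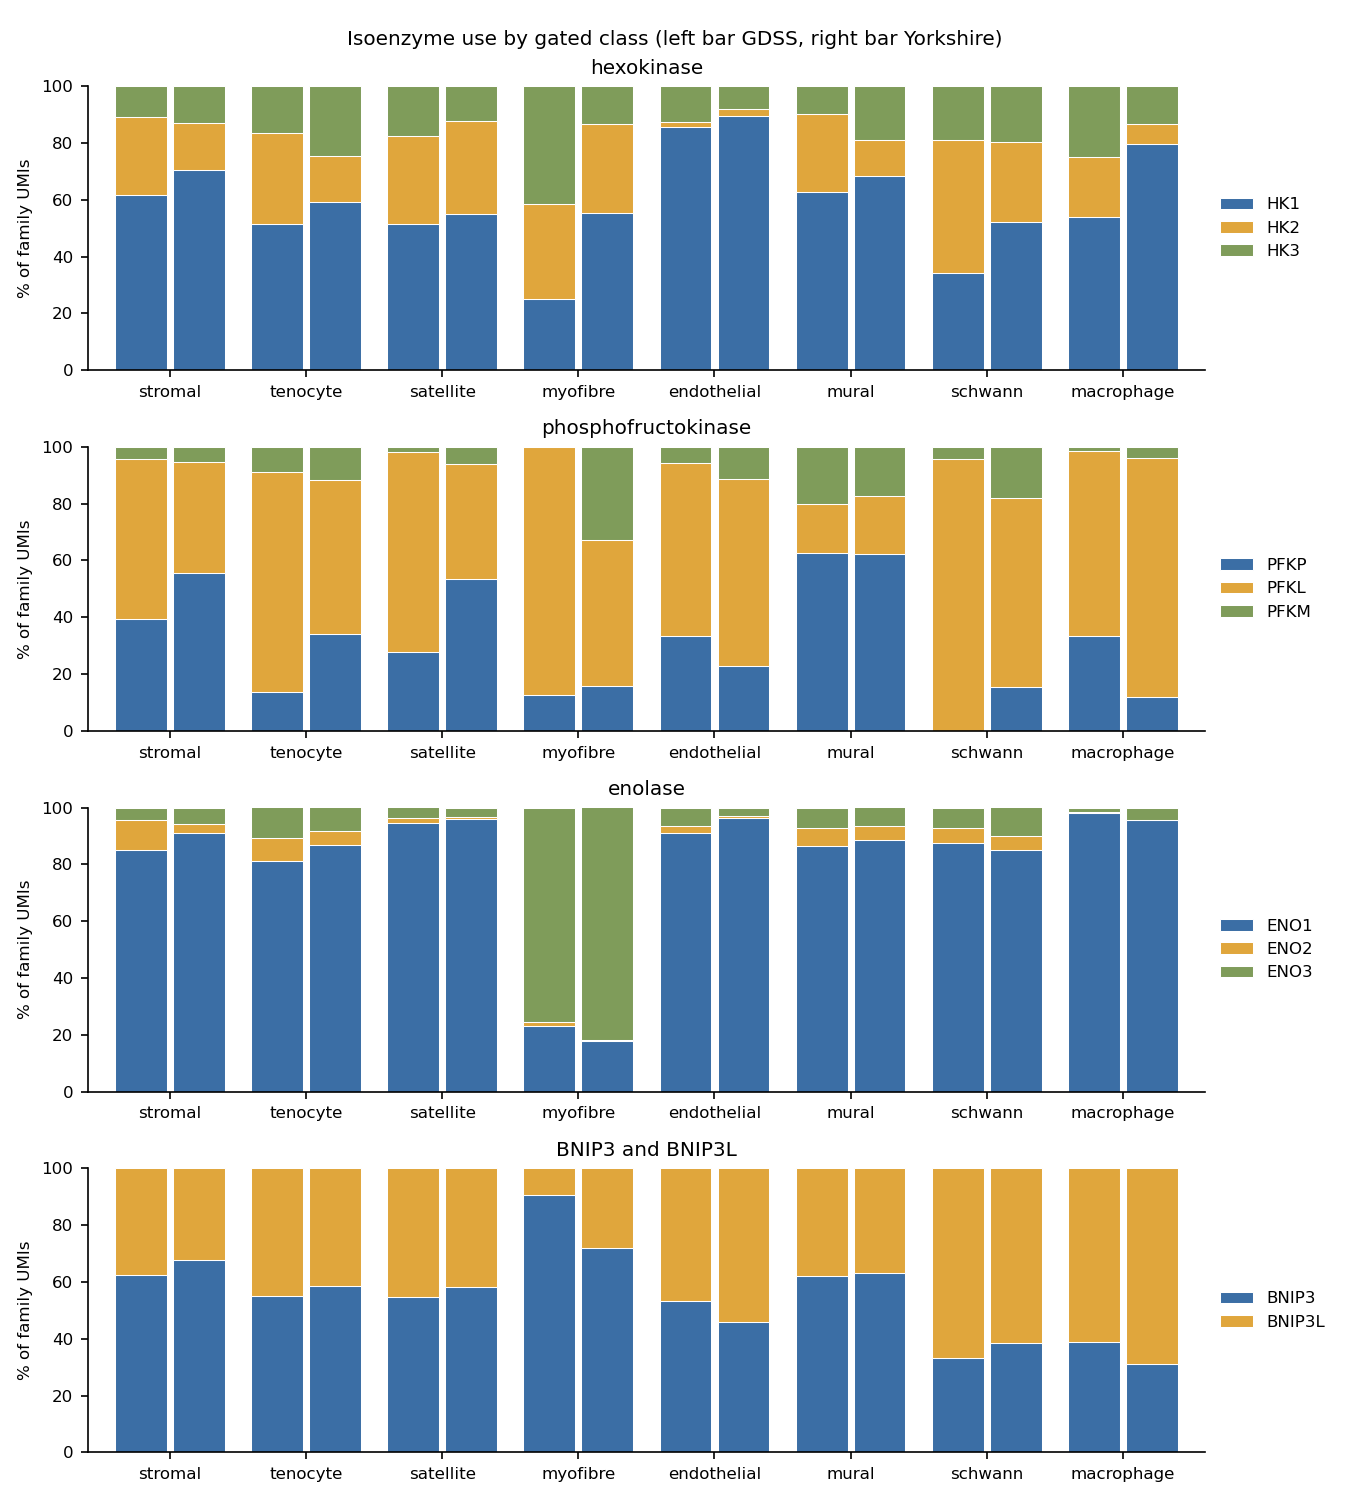
Share of family UMIs (percent) held by each hexokinase, phosphofructokinase and enolase and by BNIP3 and BNIP3L in the 8 gated classes, left bar GDSS and right bar Yorkshire. ENO3 takes 75.6% and 81.8% of enolase UMIs in myofibres, and HK2 1.92% and 2.37% of hexokinase UMIs in endothelial cells.

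PGK1, the X-linked phosphoglycerate kinase, varied least among the 7 genes between the highest and lowest class, by 2.57-fold in GDSS and 3.23-fold in Yorkshire. It was called in 1 class, macrophages, with 94.8 CPM in GDSS and 117 CPM in Yorkshire (2.38-fold; edgeR adjusted p = 4.74e-05). In both libraries the interval of macrophages overlapped that of the next class, which was myofibres (70.4 CPM) in GDSS and mural cells (109 CPM) in Yorkshire. PGK2, the testis form, had 0 UMIs in every class, which allows up to 0.124 CPM in GDSS stromal cells.

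ENO1, the general enolase, was highest in macrophages and second in satellite cells in both libraries. Macrophages had 854 CPM in GDSS and 751 CPM in Yorkshire (4.35-fold over the other classes; edgeR adjusted p = 9.99e-10). Satellite cells had 388 CPM in GDSS and 387 CPM in Yorkshire (log2 change 0.58 ± 0.17 SE; edgeR adjusted p = 0.0189), above the 167 to 255 CPM of the other 6 classes in both libraries. A stricter gate ended the satellite call. ENO1 was lowest in myofibres, with 167 CPM in GDSS and 189 CPM in Yorkshire (2.06-fold lower; edgeR adjusted p = 0.00231). The counting interval of myofibres overlapped that of the next class, mural cells (218 CPM) in GDSS and tenocytes (197 CPM) in Yorkshire. ENO1 was also called lower in mural cells (log2 change -0.65) and Schwann cells (-0.73). Both calls were lost without macrophages in the fit and when sums were scaled to the class total.

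ENO3, the muscle enolase, led over ENO1 in myofibres. It had 546 CPM in GDSS and 861 CPM in Yorkshire myofibres, against 8.04 to 34.98 CPM in all other classes of both libraries (33.2-fold; log2 change 5.05 ± 0.23 SE; edgeR adjusted p = 2.34e-12). ENO3 held 75.6% of enolase UMIs in GDSS and 81.8% in Yorkshire myofibres. Outside myofibres ENO3 stood at 0.93 to 6.19% of its myofibre level, and ACTA1, the skeletal actin gene, at 0.63 to 4.39% of its own. The other muscle genes compared, MYLPF, TNNT3 and TNNI2, stood at no more than 0.87%. How much of the ENO3 outside myofibres was free muscle RNA was not tested.

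ENO2, the neuronal enolase and a known hypoxia target, was rare, with 1046 UMIs in all gated cells. It was called higher in tenocytes, with 25.2 CPM in GDSS and 10.6 CPM in Yorkshire (3.26-fold; edgeR adjusted p = 4.13e-04), and in stromal cells, with 31.6 CPM in GDSS and 9.08 CPM in Yorkshire (2.69-fold; edgeR adjusted p = 3.90e-04). Schwann cells, the cells of neural origin here, had 13.8 CPM in GDSS and 11.3 CPM in Yorkshire, overlapping mural cells in both libraries. In Yorkshire the first 4 classes, mural, Schwann, tenocyte and stromal, overlapped one another in turn, and stromal cells did not overlap the next class, satellite cells (2.75 CPM). Endothelial cells had 6.56 CPM in GDSS and 1.76 CPM in Yorkshire and were called lower (log2 change -1.40 ± 0.45 SE; edgeR adjusted p = 0.0212), which did not hold without the library term, with the stricter gate or with at most 5% mitochondrial UMIs. Yorkshire macrophages held 0 ENO2 UMIs of 657516, which allows up to 4.56 CPM, and GDSS macrophages 5.34 CPM.

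LDHA showed the widest call. Macrophages had 653 CPM in GDSS and 455 CPM in Yorkshire, and the next class had 135 CPM in GDSS (mural) and 133 CPM in Yorkshire (Schwann). The intervals of macrophages did not overlap those of any other class, and the fold over the other classes was 8.92 (log2 change 3.16 ± 0.16 SE; edgeR adjusted p = 2.05e-12). With each cell thinned to 1500 UMIs, an LDHA UMI was found in 47.3% of GDSS and 41.2% of Yorkshire macrophages, against 7.59% of GDSS and 7.54% of Yorkshire stromal cells. Unthinned, these shares were 71.2% and 83.8% in macrophages, whose median depth was 6186 UMIs in GDSS and 7670 in Yorkshire, against 16.4% and 17.9% in stromal cells, with 3080 and 3598 UMIs.

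Stromal cells (58.6 CPM in GDSS and 58.5 CPM in Yorkshire), tenocytes (56.2 and 38.5 CPM) and satellite cells (59.0 and 46.1 CPM) lay lowest for LDHA and were called lower than the other classes. Without macrophages in the fit, an alternative chosen after seeing the data, the calls for stromal cells and tenocytes were lost, with log2 changes of -0.47 and -0.40, and the satellite call held. LDHB, the heart form, had 150 UMIs in all gated cells, so LDHA made up 92.5 to 100% of the family. The RefSeq gene table of Sscrofa11.1 lists 2 genes named LDHB and the files list 1 under that name, and reads shared between copies may not be counted, so the LDHA share is uncertain.

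BNIP3 was highest in myofibres in GDSS and in stromal cells in Yorkshire. Myofibres had 255 CPM in GDSS (29 UMIs) and 178 CPM in Yorkshire (1.74-fold; edgeR adjusted p = 0.0285), a call lost with the stricter gate. Stromal cells had 129 CPM in GDSS and 224 CPM in Yorkshire (1.86-fold; log2 change 0.90 ± 0.19 SE; edgeR adjusted p = 0.00133). Schwann cells had the lowest level in GDSS (50.8 CPM, with 70.4 CPM in Yorkshire) and were called 2.26-fold lower (edgeR adjusted p = 0.00196). The endothelial call (1.55-fold lower; edgeR adjusted p = 0.0467) and the tenocyte call (1.46-fold higher; edgeR adjusted p = 0.0498) were lost with DESeq2, under other scalings and under other filters. In GDSS alone, on CPM, the tenocyte difference was -0.074 (log2).

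BNIP3 and BNIP3L were used in opposite order in different classes. BNIP3 held 90.6% of the pair's UMIs in GDSS and 71.9% in Yorkshire myofibres, and 62.6% and 67.6% in stromal cells. In Schwann cells BNIP3L led instead, with 66.7% in GDSS and 61.6% in Yorkshire, and in macrophages with 61.1% in GDSS and 69.0% in Yorkshire. BNIP3L, which clears mitochondria from maturing red cells, was called higher in macrophages (107 CPM in GDSS and 88.2 CPM in Yorkshire; 1.68-fold; edgeR adjusted p = 0.0059) and lower in myofibres (1.82-fold lower; edgeR adjusted p = 0.0355). For BNIP3L in macrophages the log2 difference on CPM was 0.69 in GDSS alone and 0.032 in Yorkshire alone. The mean of the other classes in Yorkshire was 88.6 CPM, so BNIP3L was not higher in macrophages there on CPM. In myofibres the BNIP3L difference was -1.37 in GDSS alone, on 3 UMIs, and -0.35 in Yorkshire alone, where satellite cells were lowest. Over the 6 families and 8 classes, the same gene led in both libraries in 43 of 48 family and class pairs. The count includes the PGK1 and LDHA families, which had no room to differ. PGK2 was not detected, and LDHB had 150 UMIs in all gated cells.

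**Figure D3:**
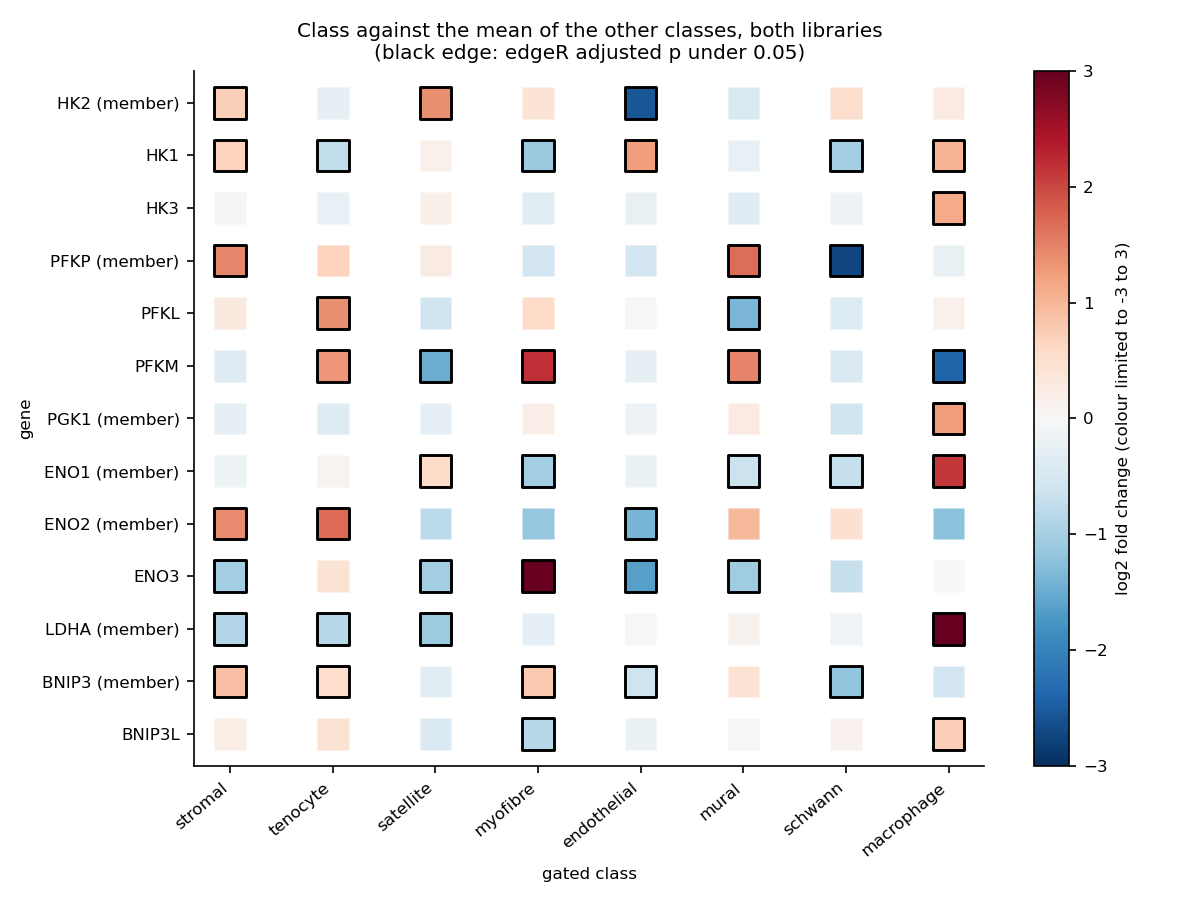
Log2 fold change of the 7 genes and their isoenzyme partners (rows) in each gated class (columns) against the mean of the other classes; red is higher, blue lower, and a black edge marks an edgeR adjusted p under 0.05. HK1 and HK2 have opposite calls in endothelial cells, PFKP and PFKL in mural cells, and ENO1 and ENO3 in myofibres.

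The remainder of the pathway was read from lists of 34 glycolysis, 24 hypoxia and 7 HIF genes, of which 28, 22 and 5 were tested. The lists include the members. In macrophages 14 glycolysis genes were called higher and 4 lower, where 22.4% and 19.1% of all genes were, and the list's median log2 change was 0.65 against -0.15 over all genes. PFKFB3, which makes the activator of phosphofructokinase, had 145 CPM in GDSS and 152 CPM in Yorkshire macrophages (6.35-fold; edgeR adjusted p = 7.16e-09). SLC16A3, the lactate exporter, was rare with 11 UMIs (7.35 CPM) in GDSS and 12 UMIs (18.2 CPM) in Yorkshire macrophages. It was called higher (edgeR adjusted p = 3.43e-05), against means of 2.31 CPM in GDSS and 1.11 CPM in Yorkshire in the other classes, several of them at 0, so that no fitted fold is given. SLC16A3 was also called higher in tenocytes, with 5.70 CPM in GDSS and 2.79 CPM in Yorkshire (edgeR adjusted p = 0.00454). The other classes averaged 2.55 CPM in GDSS and 3.32 CPM in Yorkshire, so Yorkshire tenocytes were below that mean on CPM. PFKFB4 was called higher in macrophages with 45 UMIs (30.05 CPM) in GDSS and 3 UMIs (4.56 CPM) in Yorkshire. The other classes averaged 2.63 CPM and 3.67 CPM. PDK4 was called lower in macrophages, at 6.68 CPM (GDSS) and 21.3 CPM (Yorkshire). Means over the other classes were 236 CPM and 419 CPM.

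The hypoxia genes of macrophages did not all follow. Of 22 tested, 7 were called higher and 9 lower, where 22.4% and 19.1% of all genes were. VEGFA, the vessel growth factor, was called 3.80-fold higher (edgeR adjusted p = 3.28e-06) and HIF1A 1.96-fold higher (edgeR adjusted p = 3.65e-04). LOX, a collagen cross-linker, the oxygen sensor EGLN1 (10.0 CPM in GDSS and 12.2 CPM in Yorkshire) and TXNIP were among those called lower. PPP1R3C, a glycogen regulator, was at 0 in macrophages of both libraries. The dissociation stress genes, a list of immediate early and heat shock genes, summed to 7513 CPM in GDSS and 16616 CPM in Yorkshire macrophages; their part in these levels was not tested.

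In endothelial cells more HIF genes than glycolysis genes were called higher. Of the 5 HIF genes tested, 4 were called higher, where 18.4% of all genes were: EPAS1, ARNT, HIF1A and HIF3A. EPAS1, the HIF alpha subunit known from endothelium, had 500.1 CPM in GDSS and 608 CPM in Yorkshire (36.8-fold; edgeR adjusted p = 1.59e-14). The oxygen sensors EGLN3 (4.59-fold; edgeR adjusted p = 1.50e-05) and EGLN1 (2.65-fold; edgeR adjusted p = 5.82e-06) were called higher as well. Among 22 hypoxia genes 9 were called higher and 5 lower, and among 28 glycolysis genes 1 higher, HK1, and 5 lower. Of all genes 18.4% were called higher and 12.6% lower. Mural cells, the other vessel class, also had high EPAS1, with 433 CPM in GDSS and 493 CPM in Yorkshire (25.5-fold; edgeR adjusted p = 2.25e-13).

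In stromal cells 7 of 22 hypoxia genes were called higher, where 20% of all genes were. Of the 28 glycolysis genes 6 were called higher, a share close to that of all genes, and 6 lower, where 7.39% of all genes were. ADM, a vasodilator peptide, had 651 CPM in GDSS and 373 CPM in Yorkshire (5.68-fold; edgeR adjusted p = 1.94e-08), and LOX and the prolyl hydroxylases P4HA1 and P4HA2, which serve collagen, were among the 7. LOX reached 876 CPM in GDSS and 1326 CPM in Yorkshire tenocytes. Satellite cells had 6 glycolysis genes called higher, among them PGAM2 (235 CPM in GDSS and 152 CPM in Yorkshire) and PDK4 (492 CPM and 683 CPM), and 4 lower, where 14.7% and 9.06% of all genes were. Myofibres had 7 higher and 3 lower, where 9.7% and 7.07% of all genes were. PGAM2, the muscle mutase, reached 1488 CPM in GDSS and 1092 CPM in Yorkshire, and PGAM1 was called lower. Tenocytes had 7 glycolysis genes higher and 5 lower, where 21.1% and 10.8% of all genes were, and mural cells 3 higher and 6 lower, where 16.5% and 8.83% were. Schwann cells had 1 glycolysis gene higher and 8 lower, where 15.6% and 11% of all genes were, and 4 hypoxia genes higher, led by NDRG1 (136 CPM in GDSS and 160 CPM in Yorkshire; 2.90-fold; edgeR adjusted p = 1.54e-05), and 9 lower.

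Stromal cells were split into 7 states by the marker pair that stood highest, and satellite cells into 3 states that could be fitted. Of 49 stromal state contrasts of the 7 genes, 2 were called, where 2.01% of all gene contrasts were. Both were lower in the CLDN1/ITGB4 state, whose markers are known from the nerve sheath, where 2.81% of 9268 genes were called lower. BNIP3 had 104 CPM in GDSS and 75.3 CPM in Yorkshire cells of this state (1.95-fold lower; edgeR adjusted p = 0.0123), and PFKP 27.8 CPM and 11.3 CPM (2.11-fold lower; edgeR adjusted p = 0.0306). The PFKP level rests on 9 UMIs in Yorkshire. Both differences were larger in Yorkshire alone (log2 -1.56 for BNIP3 and -2.23 for PFKP) than in GDSS alone (-0.25 and -0.20), and both calls were lost without the library term. The PFKP call was also lost when sums were scaled to the state's total (log2 change -0.90). In this state BNIP3 and BNIP3L had 139 UMIs each in GDSS, and BNIP3 held 37.5% of the pair in Yorkshire. In the other 6 states BNIP3 held 54.3 to 73.5% over both libraries.

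The PI16/CCL26 state had the highest BNIP3 of the stromal states in both libraries, 164 CPM in GDSS and 296 CPM in Yorkshire, without a call. LDHA ran the other way, lowest in GDSS in PI16/CCL26 cells (44.9 CPM, with 48.9 CPM in Yorkshire) and higher in CLDN1/ITGB4 cells (77.4 CPM in GDSS and 104 CPM in Yorkshire) and HHIP/ART4 cells (82.6 and 69.4 CPM), also without a call. HK2 in the stromal states lay between 15.8 and 46.2 CPM in GDSS and between 15.3 and 33.9 CPM in Yorkshire, and CLDN1/ITGB4 cells were lowest in GDSS and highest in Yorkshire. The IRF8/PBK state differed between libraries. ENO1 there was 236 CPM in GDSS and 508 CPM in Yorkshire, PGK1 46.4 CPM and 116 CPM, and LDHA 62.0 CPM and 104 CPM. The Yorkshire state held 74 cells against 1259 in GDSS. The 3 cycling genes of the list summed to 28.2 CPM in GDSS and 173 CPM in Yorkshire cells of this state, and the macrophage markers to 15.9 CPM and 14.4 CPM, where macrophages themselves held 11207 and 14117 CPM. The dissociation stress genes summed to 44259 CPM in GDSS and 15208 CPM in Yorkshire cells of this state, and to 30663 to 38621 CPM in GDSS and 18149 to 22143 CPM in Yorkshire in the other 6 states. The part of cell division and of stress in the ENO1, PGK1 and LDHA levels was not tested.

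Among satellite states, ENO1 was called higher in ANKRD1/POPDC3 cells, where 2.23% of 7034 genes were called higher, the only call among 18 contrasts (1.68% of all gene contrasts). It had 476 CPM in GDSS and 470.2 CPM in Yorkshire, against 327 and 340.1 CPM in cells with PAX7 and no MYOD1 and 312 and 331 CPM in MYOD1-high cells (1.43-fold; log2 change 0.52 ± 0.13 SE; edgeR adjusted p = 0.0221). The difference had the same size in GDSS alone (0.56) and Yorkshire alone (0.49), but the ENO1 call was lost with DESeq2, without the library term and with the stricter gate. In the same state the median log2 change of all genes was -0.0044. The dissociation stress genes were lower there, with a median of -0.73 and 7 of 9 called lower. They summed to 21237 CPM in GDSS and 17359 CPM in Yorkshire, against 29665 and 28062 CPM in cells with PAX7 and no MYOD1 and 38025 and 29869 CPM in MYOD1-high cells, and their part in the ENO1 level was not tested. Cells with MYMK or MYOG that passed the satellite gate, the myofibre gate or both, and no other, were taken as differentiating. With 18 in GDSS and 80 in Yorkshire, they were too few to fit. In them ENO3 had 87.4 CPM in GDSS (5 UMIs) and 367 CPM in Yorkshire, against 350 CPM (20 UMIs) and 317 CPM for ENO1, so that ENO3 led in Yorkshire. The myofibre markers, which this gate admits, summed to 25931 CPM in GDSS and 11477 CPM in Yorkshire MYMK/MYOG cells. The other satellite states, which took no cell passing the myofibre gate, held 75.3 to 449 CPM over both libraries. The part of the myofibre gate in the ENO3 level was not tested.

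**Figure D4:**
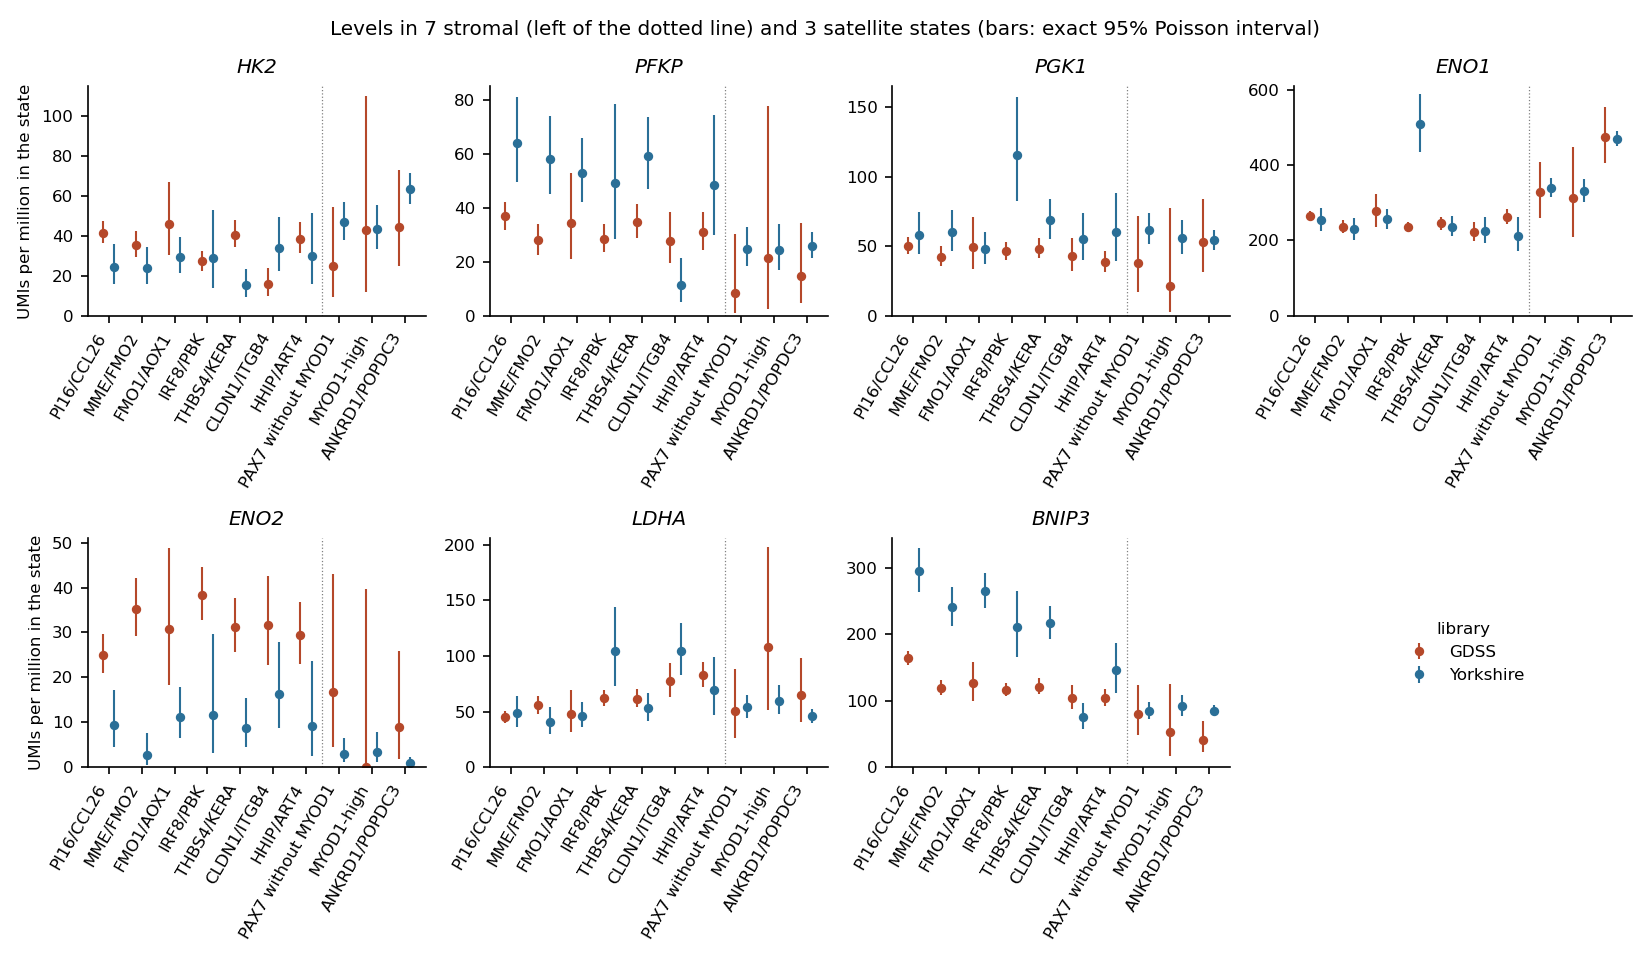
Level of each of the 7 genes (CPM, linear axes from 0) in 7 stromal and 3 satellite states, GDSS in red on the left and Yorkshire in blue on the right of each pair, with exact 95% Poisson intervals. ENO2 lies higher in GDSS in every stromal state, and ENO1 stands at 476 and 470.2 CPM in ANKRD1/POPDC3 satellite cells.

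With 1 library per breed there is no test between breeds: breed, animal and library preparation cannot be told apart. A ratio was counted where a class held at least 100 UMIs of the gene over both libraries and differed by at least 1.5-fold; its exact interval covers counting error only. Of the 56 gene and class pairs 34 could be measured and 7 passed, 2 higher in GDSS and 5 higher in Yorkshire, and 26.2% of all measured gene and class pairs passed.

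In stromal cells ENO2 was 3.48-fold higher in GDSS (95% interval 2.70 to 4.55), with 31.6 CPM in GDSS and 9.08 CPM in Yorkshire, where 5.97% of 9678 genes were higher by this measure. It was higher in GDSS in all 7 stromal states, from 1.93-fold (CLDN1/ITGB4) to 13.3-fold (MME/FMO2, on 3 Yorkshire UMIs, interval 4.45 to 65.5). BNIP3 and PFKP went the other way. BNIP3 was 1.74-fold higher in Yorkshire stromal cells and PFKP 1.61-fold higher, where 18.4% of genes were. BNIP3 was lower in GDSS in 6 of the 7 stromal states and higher in CLDN1/ITGB4 cells (1.39-fold, interval 1.02 to 1.91). PFKP had the same exception, 2.46-fold higher in GDSS (interval 1.17 to 5.80).

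Satellite cells had less HK2 in GDSS, 28.2 CPM against 51.9 CPM in Yorkshire (ratio 0.543, interval 0.369 to 0.774), and less PFKP (13.2 CPM in GDSS and 23.3 CPM in Yorkshire; ratio 0.567, interval 0.314 to 0.95; 15 GDSS UMIs), PFKP not past 1.5-fold with the stricter gate or thinned cells. In this class 20.8% of genes were higher in Yorkshire. HK1 was lower too (ratio 0.532, interval 0.396 to 0.701), whereas PFKL was higher in GDSS (1.89-fold, interval 1.30 to 2.67). PGK1 in mural cells was 62.96 CPM in GDSS and 109 CPM in Yorkshire (ratio 0.579, interval 0.417 to 0.789), where 15.1% of genes were higher in Yorkshire. BNIP3 in macrophages was 68.1 CPM in GDSS and 39.5 CPM in Yorkshire (1.72-fold, interval 1.11 to 2.76), on 26 Yorkshire UMIs, where 14.4% of genes were higher in GDSS. HK1 was lower in GDSS macrophages (ratio 0.434, interval 0.320 to 0.589). ENO1 passed in none of the 8 classes, with ratios between 0.887 and 1.29. LDHA passed in none of the 7 classes where it could be measured, with the widest ratios in tenocytes (1.46, interval 1.09 to 1.98) and macrophages (1.44, interval 1.26 to 1.64), both higher in GDSS. It did pass in macrophages when cells were thinned to 1500 UMIs (log2 ratio 0.70) and in tenocytes when high doublet scores were kept (0.63).

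The wider hypoxia list did not follow ENO2 in stromal cells. Of 22 measured genes 6 passed toward Yorkshire, where 18.4% of all genes did: BNIP3, KDM3A, LOX, MXI1, NDRG1 and TXNIP. ADM, by contrast, was 1.74-fold higher in GDSS (interval 1.67 to 1.82). The median of the list was -0.19 (log2), and that of all genes -0.17. Of 26 measured glycolysis genes ENO2 and TPI1 were higher in GDSS, where 5.97% of all genes were. In Yorkshire 5 were higher, where 18.4% of all genes were. In satellite cells 7 of 21 hypoxia genes were higher in Yorkshire, where 20.8% of all genes were. The dissociation stress genes summed to 35664 CPM in GDSS and 18712 CPM in Yorkshire stromal cells, and to 27360 CPM and 23414 CPM in satellite cells. Their part in these ratios was not tested.

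**Figure D5:**
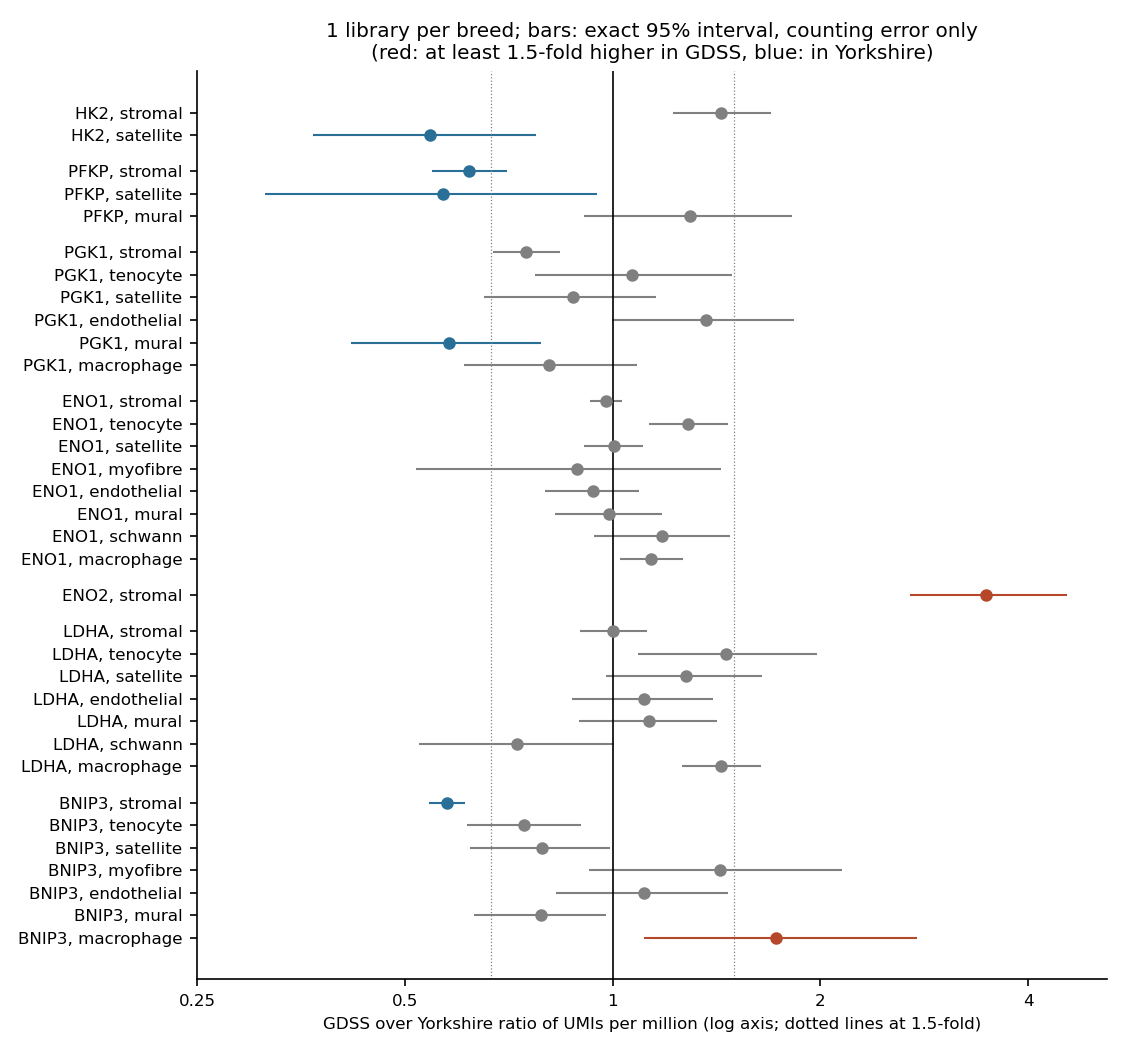
GDSS over Yorkshire ratio of CPM (log axis) for each gene and class with at least 100 UMIs, with exact 95% intervals of the counting error; red points are at least 1.5-fold higher in GDSS and blue points in Yorkshire. ENO2 in stromal cells lies farthest from 1, at 3.48, and the ENO1 points lie between 0.887 and 1.29.

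Across the 16 class and library sums, the genes most like each member by Pearson correlation of log2(CPM + 1) among 7636 genes were found as a description, with sums that share libraries and depth. LDHA was most like CTSD, the lysosomal protease (r = 0.95), and ENO1 most like LGMN (r = 0.94) and CD68, itself a macrophage marker of the gate (r = 0.93). BNIP3 was most like ATG9A, an autophagy gene (r = 0.96), and DDIT4L (r = 0.93). PGK1 was most like DLST and OGDH, subunits of one Krebs cycle enzyme (r = 0.88 and 0.86). PFKP was most like EBF3 (r = 0.87), HK2 most like PXYLP1 (r = 0.87) and ENO2 most like IRAK1BP1 (r = 0.91). Among the members themselves LDHA and PGK1 were closest (r = 0.73), LDHA and ENO1 next (r = 0.65), and ENO1 and BNIP3 farthest apart (r = -0.60).

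Within cells, at 1500 UMIs each, the share of cells with 1 member was compared between cells with and without another in 198 gene pair, class and library combinations with at least 20 cells. The exact intervals overlapped in all of them. In GDSS macrophages LDHA was found in 54.3% of 129 cells with ENO1 (interval 45.3 to 63.1%) and 35.5% of 76 cells without (24.9 to 47.3%). At this depth no joint use of these genes within single cells could be read.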

How the data were processed

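The deposited matrices hold raw counts of UMIs for each feature in each barcode. The submitters' processing notes name Cell Ranger and R 3.5.2, and the software version is 3.1.0 per the file headers. Genome build and annotation are not given in the sources used here. Every barcode had at least 500 UMIs. The kit was 10x v2 per the labels.

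Cells were kept with at least 500 genes, at most 10% mitochondrial UMIs and a scrublet score under 0.3. A marker was on in a cell with at least 1 UMI and at least 5% of its mean over the top 1% of cells. A class needed 4 markers on (stromal), 3 (myofibre) or 2 (others). Cells passing several classes were left out, except those passing only the satellite and myofibre gates, which the MYMK/MYOG state could take. The rule was set after the marker levels were seen, and ERBB3 and CD79A, found in cells of every class, were left out of it. MYH1, MYH2, MYH4 and S100B were not used here. Of 6455 features without a symbol 687 were named from a table of identifiers.

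Summed counts were tested with edgeR 4.0.16 (TMM factors, filterByExpr, R 4.3.3), with at least 20 cells per sum; the procedure was tested on simulated counts. Python 3.11.15, scanpy 1.11.5, numpy 2.4.6, scipy 1.17.1, pandas 2.3.3 and matplotlib 3.10.9 were used. Intervals are exact at 95% (Poisson, Clopper-Pearson or conditional binomial) and cover counting error only; a count of 0 allows 3 counts. Alternatives changed scaling, filters, test, library term, gate, classes fitted and depth. The named genes were the members, their isoenzyme partners, up to 4 called list genes with the largest fold per class and direction, and the 3 most alike genes per member. Other list genes were named after their values were seen. The members and lists were chosen with earlier results of these data known. Sequences were not analysed here. One result of the hypoxia list is not reported here.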

Additional observations from a re-analysis of the deposited data

Results flagged for a closer look

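BNIP3 pointed in opposite directions between the 2 libraries in 2 classes. The log2 ratio of GDSS over Yorkshire was 0.78 in macrophages and -0.80 in stromal cells, each past 1.5-fold with an interval that excluded equality. The difference between the classes was not tested, because each breed has 1 library. With cells thinned to 1500 UMIs, a BNIP3 UMI was found in 11.7% of GDSS and 2.50% of Yorkshire macrophages, and in 16.2% of GDSS and 26.6% of Yorkshire stromal cells. The macrophage ratio rests on 102 GDSS and 26 Yorkshire UMIs. The summed dissociation stress level also ran in opposite directions, with 7513 CPM in GDSS and 16616 CPM in Yorkshire macrophages, and 35664 CPM in GDSS and 18712 CPM in Yorkshire stromal cells; its part in the ratios was not tested.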

How the results depend on the processing

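The number of class contrasts called among the 7 genes stayed between 20 and 25 (24 as reported), and that of the lists between 140 and 191 (181 as reported). Without the library term (no replicate block) 20 class calls were made and 0 of the 2 stromal state calls and 0 of the 1 satellite state call were left. DESeq2 and the stricter gate each also gave 0 satellite state calls, whose cause was not tested. Breed ratios past 1.5-fold numbered 16 with at least 20 UMIs and 4 with at least 500 UMIs, against 7 at 100 UMIs, as more or fewer pairs were measured, and 5 to 8 under the other alternatives run in all classes. Of the 7, PFKP in stromal cells went to -0.52 (log2) under both other scalings and -0.57 with the stricter gate, and PFKP in satellite cells to -0.28 with the stricter gate and -0.50 with thinned cells. HK2 in satellite cells went to -0.45 with equal weights per state. Passing only under an alternative were HK2 in stromal cells (0.69 with TMM and 0.70 with median-of-ratios factors), BNIP3 in myofibres (0.59 with either, 0.96 at most 5% mitochondrial UMIs), PGK1 in satellite cells (-0.61 with equal weights), LDHA in tenocytes (0.63 with high doublet scores kept) and, with thinned cells, LDHA in macrophages (0.70) and BNIP3 in satellite (-0.70) and mural cells (-0.94). BNIP3 in tenocytes was -0.074 without the Yorkshire library and 0.29 without the GDSS library, on unscaled CPM, against 0.55 as reported. Scaling to the class total moved the median of all genes from 0.04 to -0.39 in tenocytes, -0.14 to 0.15 in myofibres, 0.04 to 0.29 in mural cells, -0.04 to 0.31 in Schwann cells and -0.15 to -0.54 in macrophages, and ended 4 class calls and the PFKP call in CLDN1/ITGB4 cells. The LDHA, ENO1 and PGK1 calls in macrophages held under every alternative that tested them. No paired analysis was possible because each breed has 1 library, and the numbers of the 2 libraries pair nothing. Depth limits the rare genes: the GDSS myofibre sum allows up to 26.4 CPM at 0 UMIs.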
